A study of Mus musculus with 6 samples.

Results

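The HOX cluster genes are the homeobox transcription factor genes that sit side by side in the HOXA, HOXB, HOXC and HOXD clusters. They were taken from the RNA-Seq table of primary mouse mesangial cells by symbol: a row was a member when its symbol was Hoxa, Hoxb, Hoxc or Hoxd followed by a number. This gave 31 members among 19730 rows, 10 in HOXA on chromosome 6, 9 in HOXB on chromosome 11, 7 in HOXC on chromosome 15 and 5 in HOXD on chromosome 2. The mm9 annotation holds 39 HOX genes, and 8 of them (Hoxa3, Hoxb7, Hoxc5, Hoxc12, Hoxd4, Hoxd10, Hoxd12 and Hoxd13) were not analysed here.

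Mesangial cells hold together the capillary loops of the kidney glomerulus and can contract, and transforming growth factor beta 1 (TGF-β1) is a secreted protein that drives scarring. There were 3 Control and 3 TGF-β1 libraries. All were from cells at passage 3 to 6 in medium with 25.5 mM glucose (which the labels call high) and 20% foetal bovine serum, and the treated cells were exposed to TGF-β1 for 72 h at 10 ng/ml. No vehicle, strain, sex or age was given in the sources used here, and the RNA was collected in triplicate without a statement for these libraries that they came from separate cultures, so p-values measure only the spread between these samples, which may be technical.

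HOX genes give cells their position along the body axis, and adult cells keep much of the HOX pattern of the body level they came from. Genes with the same paralog number in different clusters descend from 1 ancestral gene and often act redundantly. Low numbers lie at the 3′ end of a cluster and act towards the head (anterior), high numbers lie at the 5′ end and act towards the tail (posterior). In the embryonic kidney, paralog groups 10 and 11 act in the stroma and in the induction of nephron progenitors. HOX proteins bind DNA with TALE homeodomain partners (PBX, MEIS and PKNOX), their genes are held silent by Polycomb complexes, kept active by Trithorax proteins, and the 3′ genes respond to retinoic acid in the embryo.

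The values are FPKM, fragments per kilobase of transcript and per M (mega) mapped fragments. They are per length, so levels of different genes were set side by side. It is not stated whether a value belongs to the listed transcript or to the whole gene. Rankings, sums and shares carry that limit, since 19 of the 31 members have several annotated transcripts. Depth, recovered from the smallest steps between FPKM values, was 10.1 to 11.1 M fragments per library. Replicate 2 of both groups deviated from the group means in a like way (correlation across tested rows 0.23, against at most 0.12 for any other pair of a Control and a TGF-β1 library). Of the 31 members, 7 were lowest in replicate 2 in both groups. The share of all rows that did so was not computed, so this count is a description only. In replicates 1 and 3 alone the number of changed HOX genes was still 13, with Hoxd8 gained and Hoxc8 lost. Pdgfrb, a mesangial and pericyte receptor, was at 28.4 to 41.1 FPKM over all libraries, Acta2 at 912.4 to 4268 and Vim at 1922 to 3598. These mesangial markers moved in both directions. Pdgfrb fell from a Control mean of 37.52 to a TGF-β1 mean of 29.19. Acta2 rose from 997.1 to 3887 and Vim from 2191 to 3436. Mcam (16.13 to 77.89) and Cspg4 (0.0735 to 1.214) of the same marker list rose too. In each of these genes the groups did not overlap. The mesangial markers Itga8, Des, Pdgfra and Thy1 were near 0 in every library. Of 11 mesangial markers with a row, 5 reached a mean of 1 FPKM. The cells are called mesangial because the paper names them so, and their identity was not tested. The summed level of 7 tubular epithelial markers was 125.2 to 160.5 FPKM in Control and 7.54 to 9.27 in TGF-β1 libraries, most of it Cdh16, with Cdh1, Krt8 and Aqp2 near 0. Aqp1 of this list fell too, from a mean of 10.4 to 0.169 FPKM, whereas Krt18 was at 0.279 and 1.57. The sum of 5 macrophage markers was 87.0 to 113.7 in Control and 9.03 to 11.3 in TGF-β1 libraries, most of it Cd14, with Ptprc and Itgam near 0. The sum of 5 podocyte markers was 21.9 to 22.4 in Control and 10.9 to 11.97 in TGF-β1 libraries, and all 6 endothelial markers were under 1 FPKM. These marker levels moved with the treatment, and their part in the HOX changes was not tested. In bulk RNA, fewer cells of a type and less RNA per cell cannot be told apart.

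The cells, which the paper names mesangial, expressed a broad set of HOX genes, from paralog 2 to paralog 10. The study counted a gene as expressed from an FPKM of 3, and 22 members reached this mean in Control and 21 in TGF-β1 libraries. Of these, 19 reached it in every library and 13 were at 10 FPKM or more in every library. By the mean over all 6 libraries, the highest were Hoxa10, Hoxb9, Hoxa9, Hoxc6, Hoxc10 and Hoxb6. The order differed between the groups: Hoxa10 led in Control at a mean of 79.3 FPKM, and Hoxb9 with TGF-β1 at 82.7. Together these 6 genes held 393.3 ± 12.3 FPKM in Control and 392.2 ± 6.15 in TGF-β1 libraries (SD, n = 3), which was 59.1% and 58.1% of all HOX FPKM. The groups overlapped.

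Levels dropped sharply beyond paralog 10. Hoxc10 had 57.8 to 65.9 FPKM, whereas its neighbour Hoxc11 had 0.892 to 1.77. Hoxa10 had 71.2 to 84.8 and its neighbour Hoxa11 0.333 to 1.27. Hoxd11, the third member of that paralog group, was at 1.38 to 2.62 FPKM. The paralog 13 genes, which act at the tail end of the body and in the genitourinary tract, were close to 0: Hoxa13 was listed at 0 in 5 libraries, Hoxb13 in 5, and Hoxc13 had at most 0.322 FPKM. At the other end of the clusters, Hoxb1 and Hoxd1 stayed under 0.1 FPKM in every library. Hoxa11, Hoxa13, Hoxb1, Hoxb13, Hoxc13 and Hoxd1 had a mean under 1 FPKM and were not tested.

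**Figure D1:**
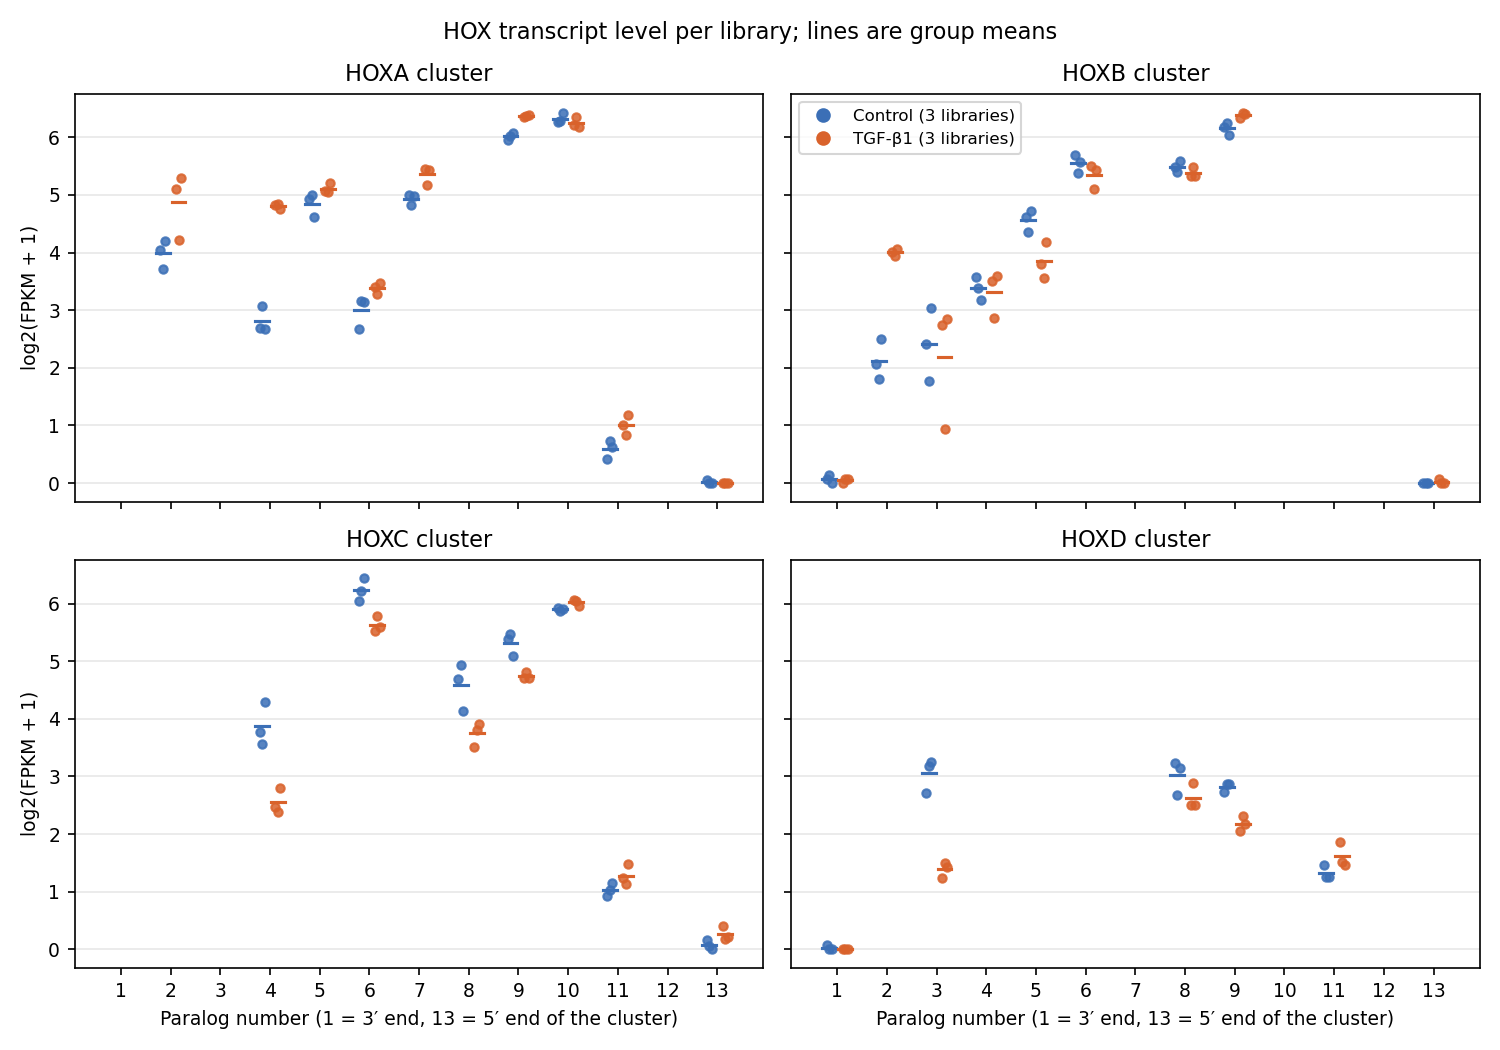
Level of the HOX genes described here as log2(FPKM + 1), by paralog number in each cluster, with 1 point per library and a line at the group mean. Levels were highest from paralog 5 to paralog 10 and dropped to near 0 at paralog 13 in both groups. Hoxa4, Hoxb2, Hoxc4 and Hoxd3 show the widest gaps between the groups.

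With TGF-β1, HOXA genes were higher or not called, and HOXC and HOXD genes were lower or not called. Of 25 tested members, 13 (52.0%) changed at an adjusted p under 0.05 (limma on log2(FPKM + 1), Benjamini-Hochberg over 11898 tested rows), against 48.1% of all tested rows. Of these, 6 were higher (among them Hoxa2, Hoxa4, Hoxa7, Hoxa9 and Hoxb2), where 24.5% of all tested rows were higher, and 7 were lower (Hoxb5, Hoxc4, Hoxc6, Hoxc8, Hoxc9, Hoxd3 and Hoxd9), where 23.6% were lower. The share of HOX genes that changed was thus near that of all rows. In 18 members the Control and TGF-β1 values did not overlap, which was 72.0% against 59.4% of all tested rows. The median log2 change of the members was -0.06 and that of all tested rows was -0.017. Hoxa4, Hoxb2, Hoxc4 and Hoxd3, 4 of 25 tested members, passed a log2 change of 1 in either direction. Of all 11898 tested rows, 1840 did so.

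By cluster, 5 of 8 tested HOXA genes were higher and none lower, with a median log2 change of 0.40. In HOXB, 1 of 7 was higher and 1 lower, with a median of -0.11. None of the 6 tested HOXC genes was higher and 4 were lower, with a median of -0.59. None of the 4 tested HOXD genes was higher and 2 were lower, with a median of -0.51. By position, the median size of the log2 change, whatever its sign, was 0.89 over 5 anterior genes (paralogs 1 to 3), 0.40 over 12 central genes (paralogs 4 to 8) and 0.27 over 8 posterior genes (paralogs 9 to 13), against 0.40 over all tested rows. These medians are descriptions without a test.

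**Figure D2:**
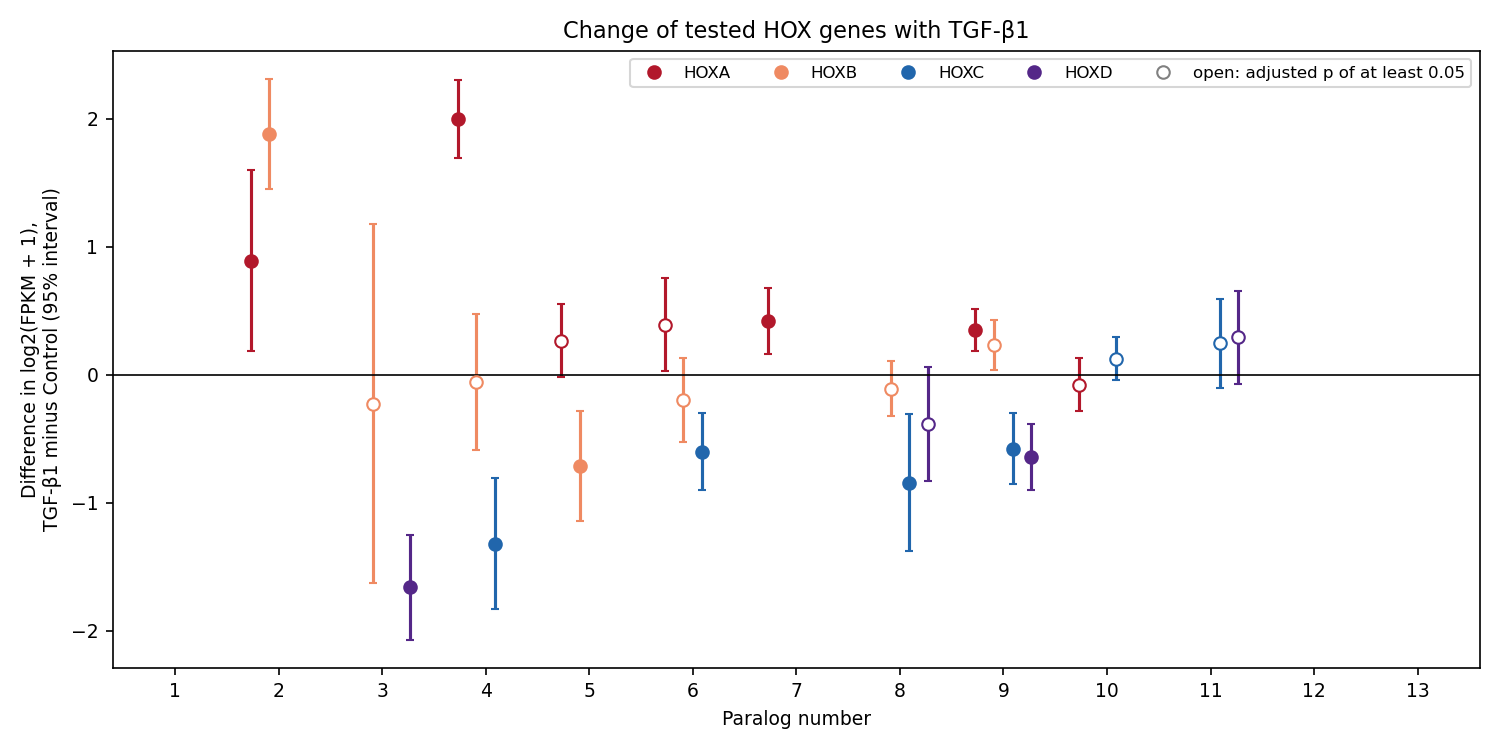
Difference in log2(FPKM + 1), TGF-β1 minus Control, for tested HOX genes by paralog number, with 95% intervals from limma and colours for the clusters. Filled points had an adjusted p under 0.05. HOXA points lie mostly above 0, HOXC and HOXD points mostly below, and changes past 1 occur only at paralogs 2, 3 and 4.

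The summed HOX level was close in both groups, while its make-up by cluster differed. All 31 members summed to 659.7, 657.2 and 680.3 FPKM in Control replicates 1 to 3 and to 675.8, 659.6 and 693.0 in TGF-β1 replicates 1 to 3, and the groups overlapped. HOXA summed to 230.8 ± 6.43 FPKM in Control and 300.1 ± 12.2 in TGF-β1 libraries (SD, n = 3), a ratio of 1.30. HOXC went the other way, from 211.7 ± 6.54 to 157.7 ± 6.26, a ratio of 0.745. HOXD fell from 22.2 ± 1.61 to 12.5 ± 1.37, a ratio of 0.563. HOXB was at 201.0 ± 9.33 and 205.8 ± 10.8, with overlapping groups. HOXA thus held 34.7% of HOX FPKM in Control and 44.4% in TGF-β1 libraries, and HOXC 31.8% and 23.3%. For the 3 clusters whose groups did not overlap, the exact permutation test of 3 against 3 libraries cannot give a two-sided p under 0.1.

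**Figure D3:**
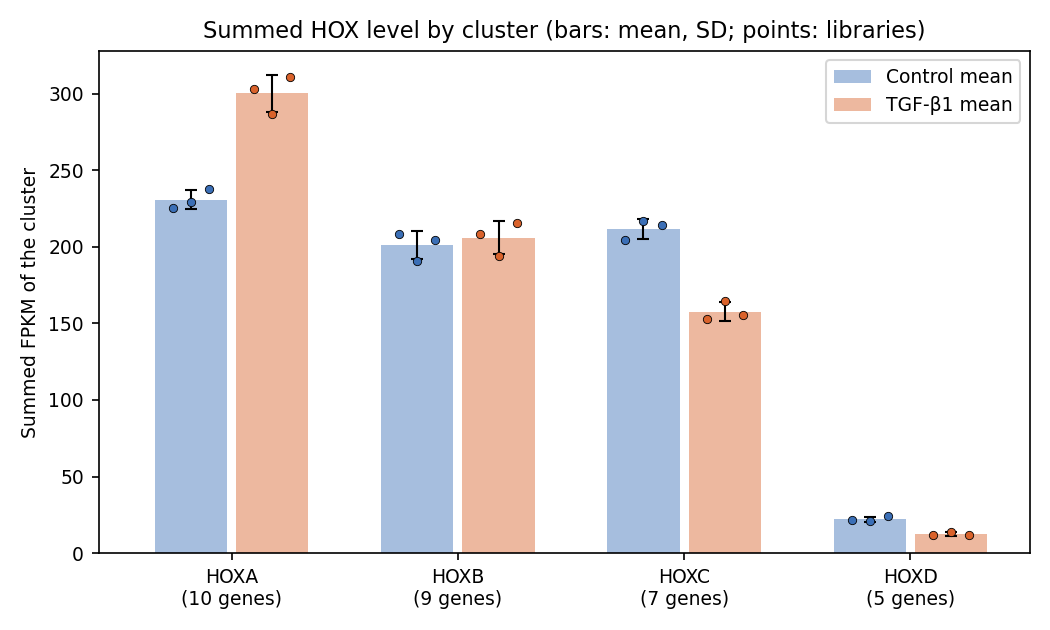
Summed FPKM of the HOX genes of each cluster in Control and TGF-β1 libraries. Bars are means, whiskers SD and points the 3 libraries of a group. HOXA sums are all higher with TGF-β1, HOXC and HOXD sums all lower, and HOXB sums overlap.

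Hoxa4 had the largest change of all HOX genes. It lies at chr6:52139670-52141752 (mm9, minus strand) and patterns the neck vertebrae. Hoxa4 overlaps Hoxa3 on the same strand and the noncoding 2700086A05Rik on the opposite strand. It was at 5.46, 7.42 and 5.37 FPKM in Control replicates 1 to 3 and at 27.4, 27.7 and 25.9 in TGF-β1 replicates 1 to 3. Every treated library was above every control, with a mean ratio of 4.44. The log2 change was 1.995 (SE 0.126, adjusted p = 8.59e-05 by limma). Leaving out any library kept the adjusted p at 0.00117 or lower.

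Its paralog Hoxc4, at chr15:102849367-102867274 (plus strand), moved in the opposite direction. Control libraries had 12.6, 10.9 and 18.5 FPKM and TGF-β1 libraries 4.52, 4.23 and 5.98, a Control mean 2.85 times the treated mean. All treated values were below all controls, with a log2 change of -1.32 (SE 0.212, adjusted p = 0.00318 by limma). Hoxb4, the third measured paralog, was at 11, 9.45 and 8.03 in Control and 10.4, 6.25 and 11.1 in TGF-β1 libraries. Its groups overlapped, and its log2 change of -0.06 had a 95% interval from -0.59 to 0.47.

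By listed FPKM, the paralog 4 group therefore changed its leading gene. Hoxa4 made up 20.8% ± 5.25 of the FPKM of Hoxa4, Hoxb4 and Hoxc4 in Control and 65.8% ± 6.22 in TGF-β1 libraries (SD, n = 3). Hoxc4 went from 46.8% ± 9.91 to 11.9% ± 1.77. The log2 ratio of Hoxa4 to Hoxc4 was -1.06 ± 0.561 in Control and 2.25 ± 0.272 with TGF-β1, a difference of 3.32 and the largest of 20 pairs of tested paralogs. This ratio did not overlap between the groups, nor did it in 11 others, for 12 of 20 pairs in all. Of all tested rows, 59.4% did not overlap between the groups. That is a share of single genes, and none was computed over other pairs of genes. With 3 libraries a group, the smallest two-sided exact permutation p is 0.1 and its adjusted value over the 20 pairs 0.167, so no pair could pass 0.05.

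Hoxb2 had the second largest increase. It lies at chr11:96212946-96217003 (plus strand) and patterns the hindbrain. Its levels were 3.18, 2.51 and 4.66 FPKM in Control and 15.2, 14.4 and 15.7 in TGF-β1 libraries, with no overlap. These rest on about 86 to 156 fragments in Control and 450 to 527 in TGF-β1 libraries. The log2 change was 1.88 (SE 0.178, adjusted p = 3.77e-04 by limma). Hoxb2 overlaps the noncoding Hoxb3os on the opposite strand, and the strand use of the estimate was not stated. Hoxb3os was at 18.02 to 27.25 FPKM in Control and 18.07 to 22.31 in TGF-β1 libraries. The neighbouring Hoxb3, which lies 5′ of Hoxb2 in the same cluster, was at 4.34, 2.41 and 7.21 in Control and 5.74, 0.922 and 6.20 in TGF-β1 libraries. Replicate 2 was the lowest library of Hoxb3 in both groups, and its change of -0.23 had an interval from -1.63 to 1.18.

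Hoxa2, the paralog of Hoxb2, sets the identity of the second pharyngeal arch and lies at chr6:52112350-52115412 (minus strand). Hoxa2 also overlaps Hoxa3 on the same strand. It was at 15.5, 12.2 and 17.3 FPKM in Control and 33.5, 17.7 and 38.3 in TGF-β1 libraries. TGF-β1 replicate 2 stood just above the highest control, well under the other treated libraries. The log2 change was 0.89 (SE 0.292, adjusted p = 0.0454 by limma), and the call held in only 1 of the 6 fits without a library, that without TGF-β1 replicate 2 (adjusted p = 0.00404). The other 5 gave adjusted p-values up to 0.134. It was also lost under median-of-ratios scaling (adjusted p = 0.0524) and without the filter on low values (adjusted p = 0.0710).

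Hoxd3 had the largest decrease. It takes part in forming the first neck vertebrae and lies at chr2:74549986-74586331 (plus strand), where it overlaps Hoxd4. Control libraries had 5.59, 8.04 and 8.57 FPKM, and TGF-β1 libraries 1.36, 1.84 and 1.69. The Control mean was 4.54 times the treated mean, and the log2 change was -1.66 (SE 0.17, adjusted p = 5.07e-04 by limma). The transcript named in the Hoxd3 row is annotated as a processed transcript and not as coding. It is not stated whether the value belongs to that transcript or to the whole gene. Of the 31 members, 19 have several annotated transcripts and carry that limit, and 21 overlap another annotated gene, which matters because the strand use of the estimate was not stated.

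The promoters of 3 of these genes are shown because Hoxa2, Hoxc4 and Hoxd3 are changed genes at the 3′ ends of their clusters, and their start regions hold letters of sites that HOX regulators are known to bind. Hoxa7, a changed gene whose entry holds a CAGAC alone, is not shown. The sequences are from RefSeq on GRCm38.p6, where 17 of the 31 members had an entry of 250 bases before to 50 after the start. Both strands were searched for TGATNNAT (a combined PBX and HOX site), TGACAG (MEIS), AGGTCA (a single unit of a retinoic acid receptor site, TGACCT when read on the other strand) and CAGAC (SMAD, the mediators of TGF-β). Capitals mark the matches, which do not overlap each other in these windows. The windows are chr6:52164862-52164961 on the minus strand for Hoxa2, chr2:74711813-74711892 on the plus strand for Hoxd3 and chr15:103034215-103034294 on the plus strand for Hoxc4.
Hoxa2: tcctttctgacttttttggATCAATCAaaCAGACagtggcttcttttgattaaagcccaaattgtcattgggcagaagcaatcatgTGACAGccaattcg
Hoxd3: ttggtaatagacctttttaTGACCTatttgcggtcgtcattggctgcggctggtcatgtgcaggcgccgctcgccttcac
Hoxc4: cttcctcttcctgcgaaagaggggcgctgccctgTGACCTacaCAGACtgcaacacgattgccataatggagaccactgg

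The Hoxa2 window holds the PBX and HOX letters on the opposite strand, a CAGAC and a TGACAG within 100 bases, and the Hoxc4 window an AGGTCA on the opposite strand beside a CAGAC. Over the whole entries, TGATNNAT occurred in 4 of 17 member promoters and in 8.85% of all 32851 promoters, AGGTCA in 5 and in 16.3%, TGACAG in 1 and in 19.2%, and CAGAC in 7 and in 49.6%. Hoxc4 and Hoxd3, which both fell, share AGGTCA, as do Hoxa5, Hoxb4 and Hoxd8, which did not pass the test. These matches describe letters only.

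The central HOXA genes shifted less than Hoxa4. Hoxa7, which patterns the thorax, had 31.1, 27.4 and 30.7 FPKM in Control and 43.0, 35.0 and 42.4 in TGF-β1 libraries. No values overlapped, and the log2 change was 0.42 (SE 0.108, adjusted p = 0.0198 by limma). The call was lost without Control replicate 2, TGF-β1 replicate 1 or TGF-β1 replicate 3, with adjusted p-values up to 0.0732. No paralog of Hoxa7 was analysed here.

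At paralog 5, Hoxb5, which patterns the shoulder level, fell and Hoxa5, a regulator of lung and airway development, did not pass the test. Hoxb5 had 23.5, 19.4 and 25.4 FPKM in Control and 12.98, 10.8 and 17.1 in TGF-β1 libraries, with no overlap and a log2 change of -0.71 (SE 0.179, adjusted p = 0.0180 by limma). Without Control replicate 1, Control replicate 3 or TGF-β1 replicate 1 the adjusted p rose to between 0.0569 and 0.0596. Hoxa5 was at 29.4, 30.8 and 23.6 in Control and 32.7, 32.1 and 35.9 in TGF-β1 libraries. Its groups did not overlap either, and its change of 0.27 had an interval from -0.02 to 0.55 (adjusted p = 0.111 by limma).

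At paralog 6, Hoxc6, a thoracic and limb-level gene, was the highest HOXC gene in Control and fell. Control libraries held 65.4, 73.5 and 85.8 FPKM and TGF-β1 libraries 45.1, 53.9 and 47.4. All treated libraries lay below all controls, with a log2 change of -0.60 (SE 0.125, adjusted p = 0.00863 by limma). Hoxb6 was at 51.0, 40.8 and 46.4 in Control and 44.4, 33.6 and 42.2 in TGF-β1 libraries, and these overlapped. Hoxa6 was at 5.42, 7.91 and 7.87 in Control and 9.52, 8.77 and 10.1 in TGF-β1 libraries, which did not overlap but gave an adjusted p of 0.0740 by limma.

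At paralog 8, Hoxc8, which patterns the lower thorax, had 24.8, 29.7 and 16.6 FPKM in Control and 10.5, 12.99 and 14.03 in TGF-β1 libraries. Its lowest control stood just above its highest treated library, and the log2 change was -0.84 (SE 0.221, adjusted p = 0.0212 by limma). The call was lost without Control replicate 1 or 2 or without TGF-β1 replicate 1 or 2, and in replicates 1 and 3 alone (adjusted p = 0.104). Hoxb8, known for its part in myeloid progenitors, was at 44.0, 41.0 and 47.4 in Control and 39.3, 43.7 and 39.3 in TGF-β1 libraries. Hoxd8 was at 8.37, 5.43 and 7.81 in Control and 4.68, 6.40 and 4.66 in TGF-β1 libraries. Both overlapped between groups. Hoxd8 passed only without Control replicate 2 (adjusted p = 0.0436) or in replicates 1 and 3 alone (adjusted p = 0.0159).

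Paralog group 9 was measured in all 4 clusters, with a single gene in each, and its called members moved in different directions. Hoxa9, a regulator of blood progenitors, was at 61.3, 63.9 and 66.5 FPKM in Control and 80.3, 81.5 and 82.9 in TGF-β1 libraries. The treated values were tightly grouped above the controls, with a log2 change of 0.35 (SE 0.069, adjusted p = 0.00738 by limma). Quantile normalization took this to 0.21 with an adjusted p of 0.0612. Hoxb9, its HOXB counterpart, was at 71.4, 74.9 and 65.1 in Control and 80.1, 84.3 and 83.7 in TGF-β1 libraries. It did not overlap but narrowly missed the test at a log2 change of 0.23 (adjusted p = 0.0552 by limma).

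The HOXC and HOXD members of the group fell. Hoxc9, which sets thoracic motor neuron identity, was at 40.9, 43.6 and 33.2 FPKM in Control and 25.2, 26.9 and 25.2 in TGF-β1 libraries, without overlap and with a log2 change of -0.58 (SE 0.114, adjusted p = 0.00723 by limma). Hoxd9, a limb and lower spine gene, had 5.65, 6.30 and 6.31 in Control and 3.13, 3.99 and 3.54 in TGF-β1 libraries. It did not overlap either, with a log2 change of -0.64 (SE 0.107, adjusted p = 0.00371 by limma). Of the summed paralog 9 FPKM, Hoxc9 held 21.8% ± 2.05 in Control and 13.3% ± 0.396 in TGF-β1 libraries, Hoxd9 3.39% ± 0.275 and 1.83% ± 0.186, and Hoxa9 35.6% ± 2.78 and 42.1% ± 0.621 (SD, n = 3).

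Paralog groups 10 and 11, the groups with known roles in kidney development, held no call. Hoxa10, the highest HOX gene in Control, was at 75.7, 77.2 and 84.8 FPKM in Control and 73.4, 80.6 and 71.2 in TGF-β1 libraries. Its groups overlapped, and the 95% interval of its log2 change ran from -0.29 to 0.13. Hoxc10 was at 59.6, 57.8 and 58.8 in Control and 65.9, 65.4 and 60.9 in TGF-β1 libraries. Every treated library lay above every control, and the log2 change of 0.12 had a 95% interval from -0.05 to 0.29 (adjusted p = 0.193 by limma). Hoxc11 and Hoxd11 had log2 changes of 0.25 and 0.29 at means under 2.1 FPKM, with adjusted p-values of 0.206 and 0.154 by limma. Both passed only under quantile normalization. Hoxa11 was at 0.333, 0.667 and 0.538 in Control and 1.01, 0.781 and 1.27 in TGF-β1 libraries, under the filter for testing.

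Other rows inside the clusters, most of them transcripts annotated on the strand opposite to the HOX genes, included members of both directions. Of 14 such rows, 12 were tested, 2 were higher and 3 lower, which was 41.7% changed against 48.1% of all tested rows. In HOXA, Gm15050, a long noncoding RNA between Hoxa2 and Hoxa4, was at 7.03, 7.37 and 7.62 FPKM in Control and 28.4, 20.3 and 21.9 in TGF-β1 libraries, without overlap. Its log2 change was 1.54 (adjusted p = 2.55e-04 by limma). Hoxaas3 (2700086A05Rik), which runs opposite to Hoxa4, Hoxa5, Hoxa6 and Hoxa7, was at 17.7, 20.1 and 16.3 in Control and 27.1, 27.5 and 26.3 in TGF-β1 libraries, a log2 change of 0.56 (adjusted p = 0.00359 by limma). Both stood in the same direction as the called HOXA genes around them.

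The 3 lower rows were in HOXB and HOXD. Hoxb5os (0610040B09Rik), opposite to Hoxb5 and Hoxb6, was at 7.61, 6.56 and 10.1 FPKM in Control and 2.98, 0.251 and 2.58 in TGF-β1 libraries (log2 change -1.78, adjusted p = 0.0188 by limma, lost without Control replicate 1 or 3). Hoxd3os1 (1700109F18Rik), opposite to Hoxd3 and Hoxd8, was at 14.7, 11.5 and 6.32 in Control and 1.64, 4.74 and 4.30 in TGF-β1 libraries (log2 change -1.39, adjusted p = 0.0276 by limma, lost without Control replicate 1 or 2 or TGF-β1 replicate 1). Haglr (6720416L17Rik), between Hoxd3 and Hoxd1, was at 2.28, 1.97 and 1.18 in Control and was listed at 0 and at 0.315 and 0.294 in TGF-β1 libraries (log2 change -1.21, adjusted p = 0.00423 by limma). Without strand information, reads of an antisense transcript and of the HOX gene it overlaps cannot be told apart.

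Of the well known HOX long noncoding RNAs, Hotairm1 (Gm15051), in HOXA, ranged from 2.61 to 25.9 FPKM within Control and from 4.95 to 43.3 within TGF-β1 libraries, with replicate 2 lowest in both groups, an interval of the log2 change from -1.31 to 3.53 and no call in this fit. Hotair (Gm16258), in HOXC, stayed under 0.4 FPKM in every library and was not tested. Outside the clusters, 3 genes on each side were taken. Of these 24 genes, 22 were tested, 8 were higher and 1 was lower, which was 40.9% changed against 48.1% of all tested rows. Of the 8, Smug1 lost its call in all 6 fits without a library and Atp5g1 in those without a TGF-β1 library. Calcoco1, the gene next to the 5′ end of HOXC, was at 96.4, 102.1 and 108.7 in Control and 46.0, 60.5 and 46.7 in TGF-β1 libraries. Skap1 and Skap2, adaptor protein genes at the 3′ ends of HOXB and HOXA, had log2 changes of 1.41 and 0.73 and were higher in all treated libraries. Lnp (Lnpk), next to the 5′ end of HOXD, had a log2 change of 0.97, in the opposite direction to the called HOXD genes.

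**Figure D4:**
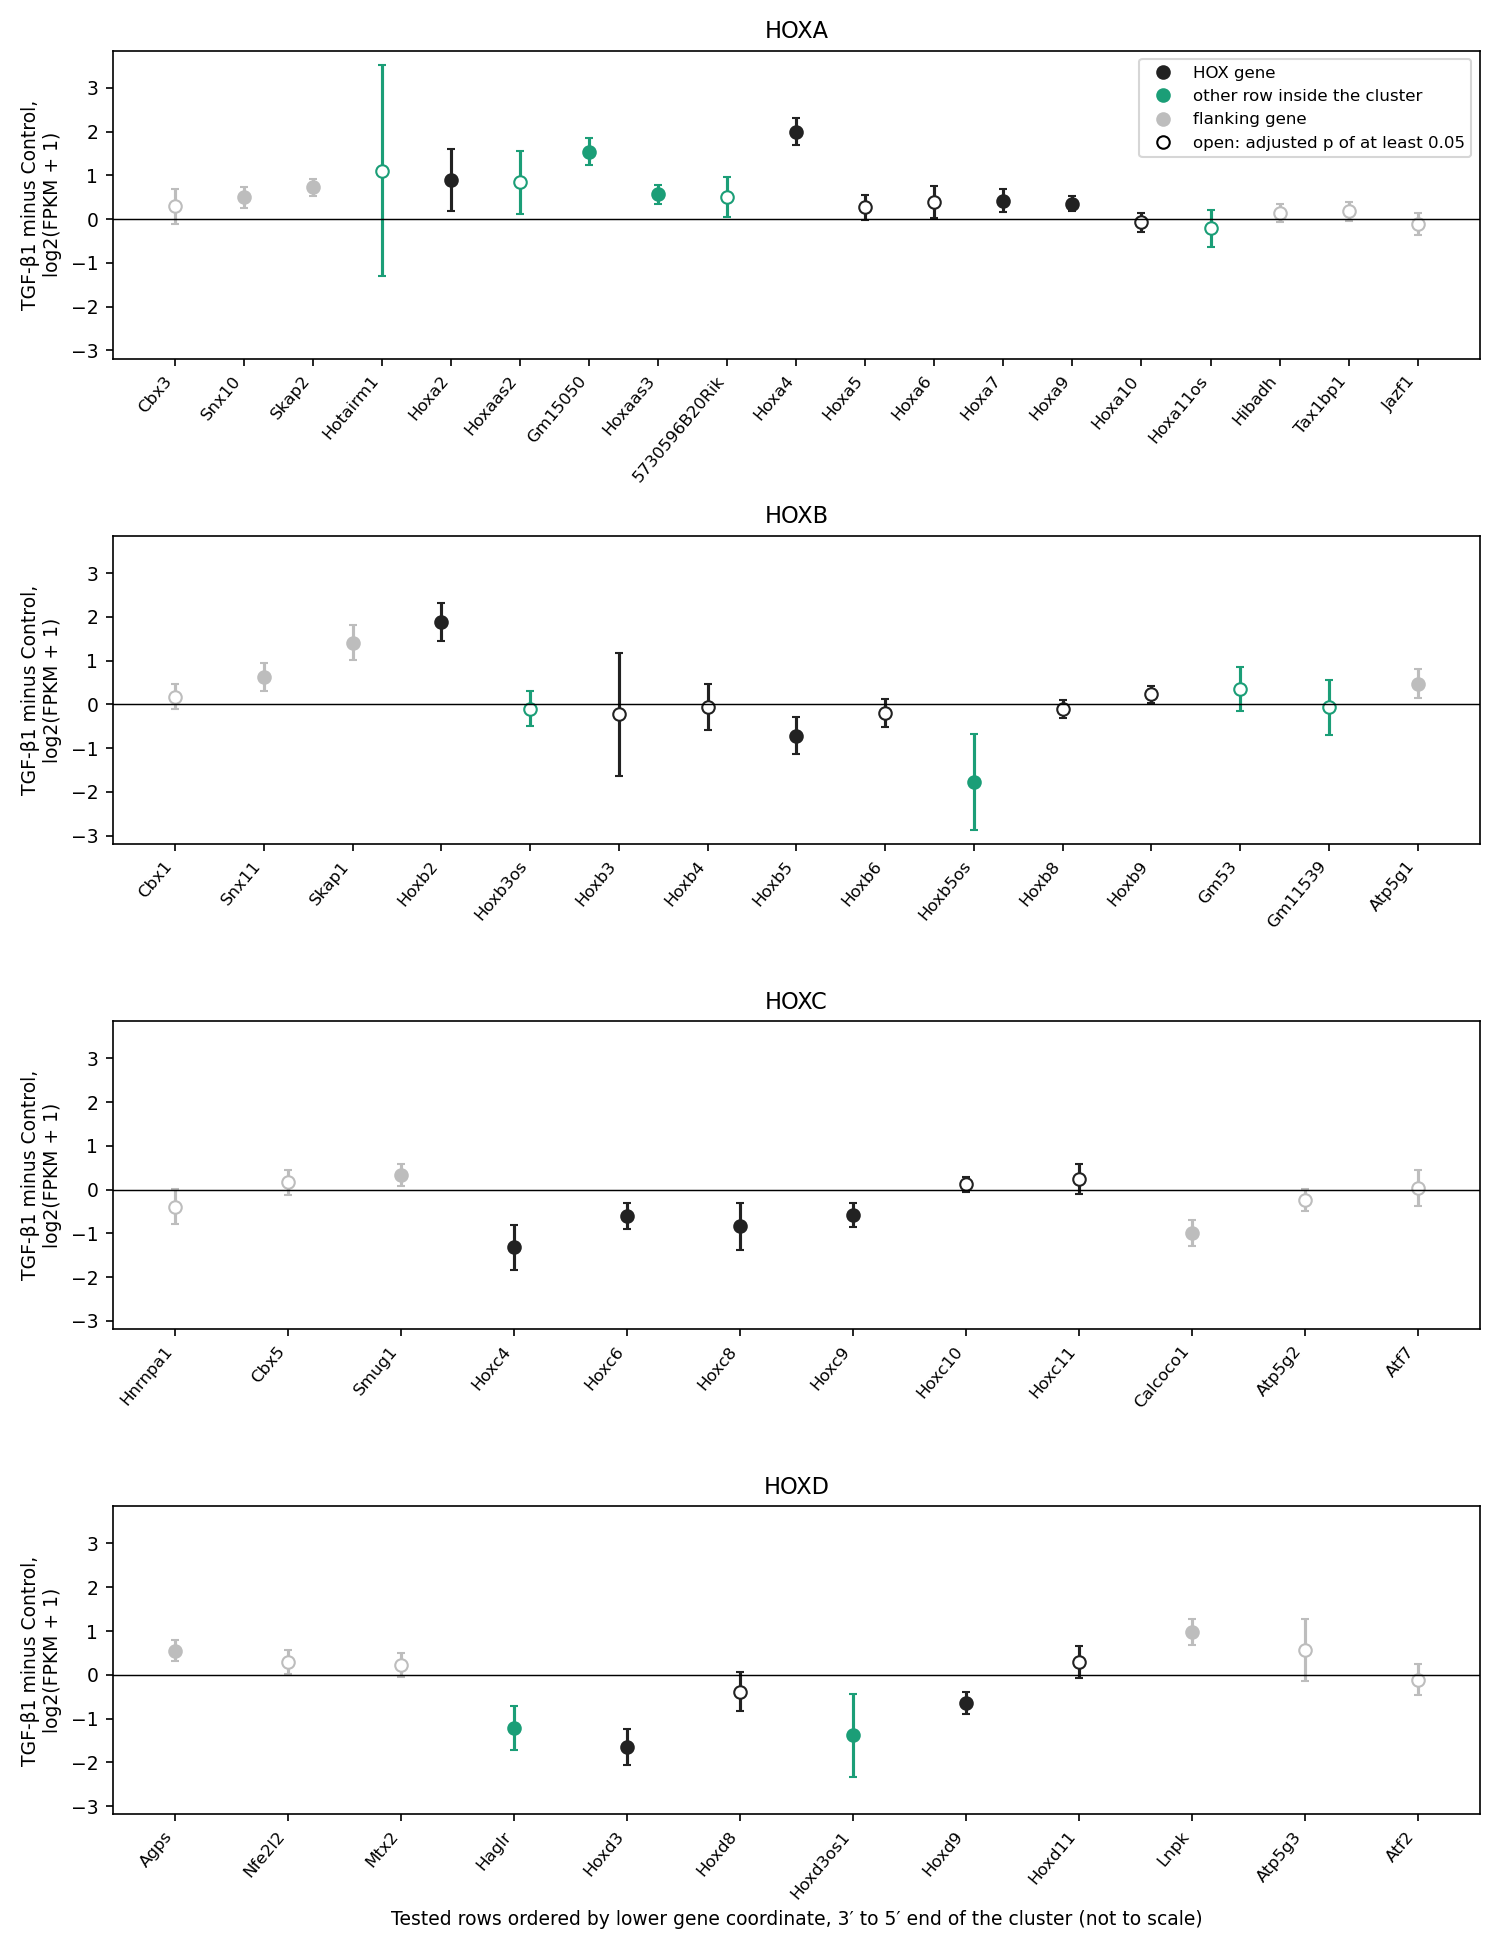
Difference in log2(FPKM + 1), TGF-β1 minus Control, with 95% intervals from limma, for tested HOX genes (black), other rows inside the clusters (green) and flanking genes (grey). Rows are ordered by their lower gene coordinate from the 3′ to the 5′ end of each cluster, not to scale, and filled points had an adjusted p under 0.05. Inside HOXA the filled points lie above 0 and inside HOXC and HOXD below 0, while Lnpk beside HOXD lies above.

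Genes that work with or control HOX genes were taken as 6 lists, of which 61 genes were tested. Of these 40 changed (65.6%, against 48.1% of all tested rows), 11 higher and 29 lower, with a median log2 change of -0.31. Over all tested rows 24.5% were higher and 23.6% lower. The TALE cofactors, the DNA-binding partners of HOX proteins, were lower or not called: 5 of 8 fell (62.5%) and none rose, with a median of -0.51. Pbx4 was at 15.2, 12.5 and 17.4 FPKM in Control and 4.32, 4.69 and 3.73 in TGF-β1 libraries (log2 change -1.61, adjusted p = 2.70e-04 by limma). Meis3 was at 23.6, 24.7 and 25.7 in Control and 13.2, 13.9 and 12.01 in TGF-β1 libraries (log2 change -0.87). Without 1 library the calls of Meis1 and Meis2 in this list were lost in 5 and 2 of the 6 fits.

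Polycomb repressive complex 2 (PRC2), which writes H3K27 trimethylation, and the enzymes that remove it had 4 of 12 tested genes higher and 3 lower. This was 58.3% changed, against 48.1% of all tested rows. Phf1, a PRC2 accessory protein, was at 22.2 to 23.7 FPKM in Control and 8.07 to 11.02 in TGF-β1 libraries and fell (log2 change -1.22). Ezh1, a catalytic subunit, was at 12.6 to 14.6 and 4.41 to 5.89 and fell too (log2 change -1.21). Rbbp4, a histone-binding subunit and the highest uncalled gene, was at 133.5 to 160.1 and 117.0 to 126.9. Ezh2, the other catalytic subunit, which is named here after its values were seen, was at 10.3 to 18.8 in Control and 9.47 to 12.1 in TGF-β1 libraries (log2 change -0.31, adjusted p = 0.268 by limma). The higher genes were Aebp2, Eed, Suz12 and Rbbp7, with log2 changes of 0.93, 0.57, 0.39 and 0.37. Aebp2 was at 18.35 to 23.15 in Control and 38.0 to 42.1 in TGF-β1 libraries. Without 1 library, Suz12 and the lower gene Jarid2 each kept their call in only 1 of the 6 fits, and Rbbp7 in 4.

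Polycomb repressive complex 1 (PRC1), which reads that mark, had 2 of 11 genes higher and 6 lower, which was 72.7% changed against 48.1% of all tested rows. The higher genes were Phc2 (log2 change 0.50) and Rnf2 (0.36), whose call held in only 1 of the 6 fits without a library. Cbx7, a reader subunit, was at 2.58 to 2.98 FPKM in Control and 0.415 to 0.719 in TGF-β1 libraries (log2 change -1.28). Pcgf2 was at 33.8 to 62.2 and 18.4 to 27.8 (log2 change -0.91), a call that held in only 2 of the 6 fits without a library. Bmi1, the highest uncalled gene, was at 27.8 to 32.3 and 32.4 to 37.3. Trithorax and boundary factors had 4 of 10 lower and none higher, which was 40.0% changed against 48.1% of all tested rows. Mll2 of this list held its call in only 1 of the 6 fits without a library. Mll3, a histone H3K4 methyltransferase, was at 10.2 to 11.96 in Control and 5.52 to 6.50 in TGF-β1 libraries (log2 change -0.83). Men1, another gene of this list, had a log2 change of -0.59 and held its call in 2 of 6 fits. Dpy30, the highest uncalled gene, overlapped between groups at 41.8 to 65.0 and 50.2 to 59.8.

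The retinoic acid axis moved in both directions, with 4 of 10 tested genes higher and 4 lower, which was 80.0% changed against 48.1% of all tested rows. Aldh1a3, an enzyme that makes retinoic acid, was at 0.537, 0.605 and 0.407 FPKM in Control and 33.1, 32.4 and 33.8 in TGF-β1 libraries (log2 change 4.49, adjusted p = 2.06e-06 by limma). Crabp2, which carries retinoic acid to its receptors, was at 0.980, 0.739 and 1.65 in Control and 15.3, 17.2 and 16.3 in TGF-β1 libraries (log2 change 3.05). The largest falls in the list, named here after their values were seen, were those of Aldh1a1, another enzyme that makes retinoic acid (mean 13.58 to 1.62 FPKM, log2 change -2.47), and Cyp26b1, which breaks it down (6.52 to 0.339, log2 change -2.46). Of the other called genes, Rarb (mean 9.88 to 33.3 FPKM, log2 change 1.67) and Aldh1a2 (47.1 to 71.7, 0.60) rose. Rxra (13.9 to 6.05, -1.08) and Rxrb (19.1 to 14.5, -0.38) fell. The receptor Rarg, the highest uncalled gene, was at 43.1 to 44.7 in Control and 42.7 to 43.4 in TGF-β1 libraries. Among the anterior HOX genes, Hoxa2 and Hoxb2 were higher and Hoxd3 lower in the same libraries.

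Partners and targets of HOX10 and HOX11 proteins in the developing kidney were mostly lower, with 7 of 10 tested genes lower and 1 higher. This was 80.0% changed against 48.1% of all tested rows, at a median log2 change of -0.99. Osr1, a transcription factor of early kidney mesoderm, was at 21.1, 13.5 and 19.8 FPKM in Control and 1.36, 0.873 and 1.17 in TGF-β1 libraries (log2 change -3.15, adjusted p = 6.82e-05 by limma). Pax8, a kidney lineage factor that tubular epithelium also expresses, was at 108.0, 137.4 and 114.6 in Control and 29.9, 25.8 and 25.7 in TGF-β1 libraries (log2 change -2.10). Cdh16, a tubular gene, moved with it, at 113.9 to 146.1 in Control and 5.75 to 6.88 in TGF-β1 libraries, and its part in the list's values was not tested. Gdnf, the 1 higher gene, was at 1.07 to 1.40 in Control and 2.71 to 2.76 in TGF-β1 libraries (log2 change 0.77, adjusted p = 0.00217 by limma). Its call held in all 6 fits without a library. Six2 was near 0 in every library and was not tested. Meanwhile the HOX10 and HOX11 genes themselves were not called.

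**Figure D5:**
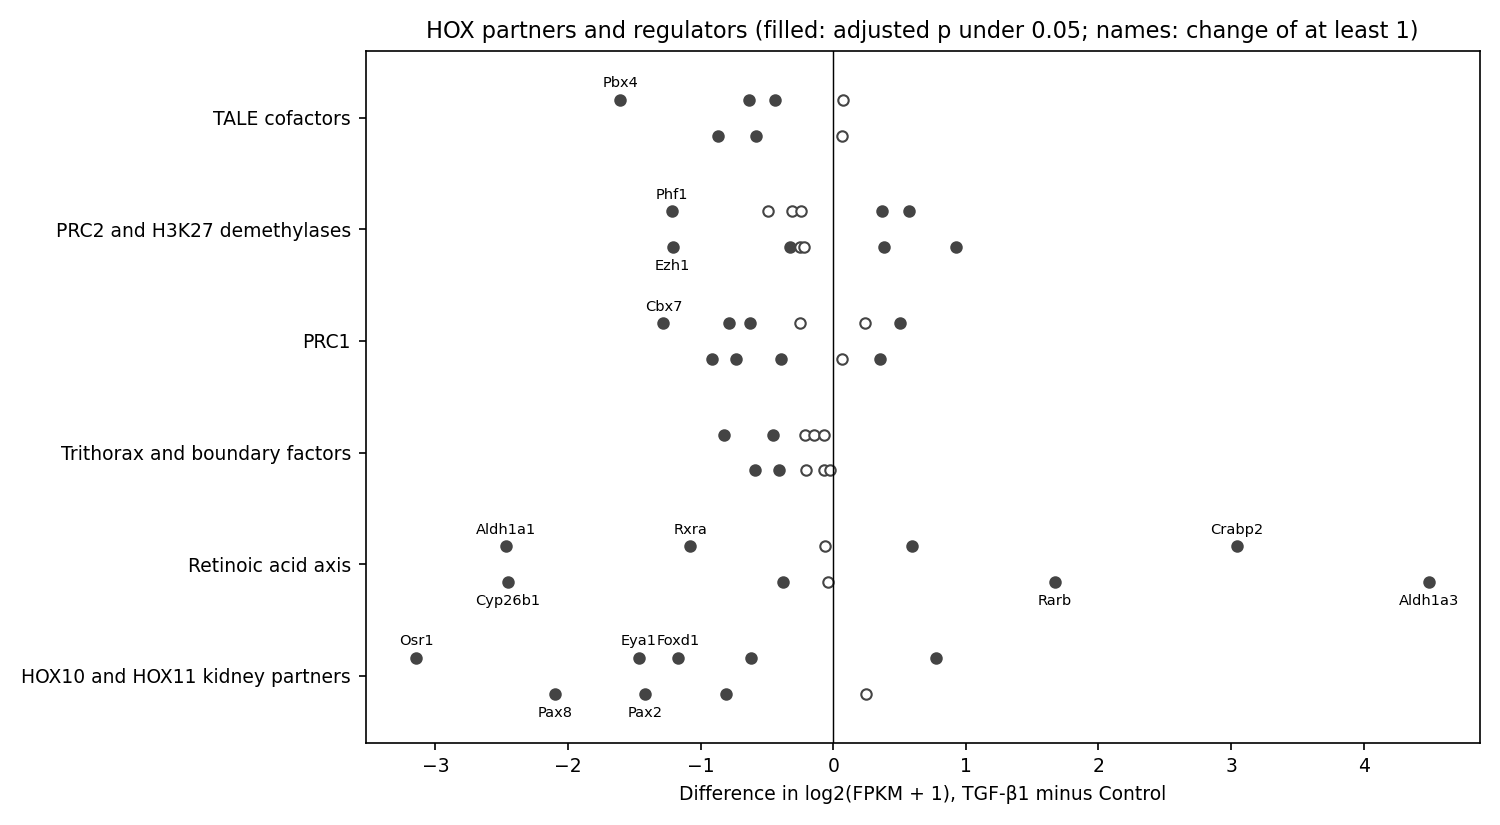
Difference in log2(FPKM + 1), TGF-β1 minus Control, of tested HOX partners and regulators in 6 lists, with 1 point per gene. Filled points had an adjusted p under 0.05, names are given for changes of at least 1, and points are offset vertically for legibility only. Aldh1a3 lies farthest to the right at 4.49 and Osr1 farthest to the left at -3.15.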

How the data were processed

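Samples were grouped and numbered as their labels give them. The authors filtered out low-quality reads, aligned the remainder to mm9 using TopHat (the submitters' processing notes name TopHat2 2.0.11) and estimated FPKM with Cufflinks. The deposited values are FPKM, 1 column per library, without stated scaling between libraries. The authors tested counts with DESeq; counts were not used here.

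Rows averaging 1 FPKM or more over 6 libraries (11898 of 19730) were tested on log2(FPKM + 1) with limma 3.58.1 in R 4.3.3 (lmFit, eBayes with trend), two-sided, with Benjamini-Hochberg adjustment. The log2(FPKM + 1) scale understates changes of low genes. An adjusted p under 0.05 was called changed. No group of samples was pooled, and no column was left out. Genes, overlaps and neighbours came from the GENCODE annotation of mm9, and current symbols of noncoding rows from RefSeq. Python 3.11.15 was used.

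Depth was recovered from low FPKM values, which were whole multiples of 1 fragment (within 0.1 of a fragment, for an assumed 200 nt fragment) in 99.4% to 99.9% of 677 to 784 low genes per library. Fragment numbers are therefore approximate. An exact 0 can be a failed estimate, so such values are described as listed at 0.

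Described in full were each called HOX gene and the uncalled members of its paralog group with a mean of at least 1 FPKM, and from each partner list the 2 called genes with the largest change and the highest uncalled gene. Some items that this rule selects are not reported here, though counts, medians and sums include them. Partners outside this rule were named after their values were seen. The members, lists and tests were chosen with earlier results of these data known. The fit was tested on simulated data. Alternatives covered pseudocounts, filters, scaling, the variance trend, the threshold, each library in turn, the replicate number as a block, and replicate 2.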

Additional observations from a re-analysis of the deposited data

How the results depend on the processing

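Over the log2 changes and counts, 18 other settings gave 422 values, of which 392 kept their direction and their side of the threshold (for counts, stayed within 1.5 times). Of the called genes, 8 (among them Hoxa4, Hoxb2, Hoxc4, Hoxc6, Hoxc9, Hoxd3 and Hoxd9) were called under every setting where they were tested. The count of changed HOX genes was 9 to 12 without 1 library and 12 to 15 under other pseudocounts, filters and scalings, and 9 at an adjusted p under 0.01. That threshold moved 2 counts by over 1.5 times: changed rows went from 5721 to 3672 and changed partners from 40 to 26. Without 1 library, changed rows ran from 4419 to 5446. The direction of Hoxb3 and Hoxb4, which were not called, turned: in replicates 1 and 3 alone, Hoxb3 went to 0.072 and Hoxb4 to 0.174. Without 1 library, Hoxb3 ran from -0.561 to 0.391 (0.087 without Control replicate 3, 0.391 without TGF-β1 replicate 2) and Hoxb4 from -0.197 to 0.172 (0.042 without Control replicate 1, 0.172 without TGF-β1 replicate 2). In both genes TGF-β1 replicate 2 is the lowest library. Scaling moved the median log2 change of all rows from -0.017 to -0.038 (median of ratios) or 0.006 (quantile).

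The replicate block called 13 HOX genes, 6 higher and 7 lower, each of those called without it, and 5391 rows. Among the other rows in and beside the clusters it added Hotairm1 (adjusted p = 0.0286), Hoxaas2 (0.0465) and 5730596B20Rik (0.0483) and lost Hoxd3os1 (0.0524) and Smug1 (0.0590). Among partners and regulators it added Kdm6b and lost Meis1, Suz12, Jarid2 and Rnf2. Same-numbered libraries had correlations of their deviations over tested rows of 0.09, 0.23 and 0.09, and over protein-coding rows of at least 300 nt, a set chosen after seeing the data, of 0.21, 0.42 and 0.15. In the latter, Control replicate 1 and TGF-β1 replicate 3 also reached 0.20, so the numbers were not taken as pairs. Without the filter, none of the 6 HOX genes under a mean of 1 FPKM passed the test (limma, adjusted p from 0.0607 to 0.797), and with few fragments their differences are poorly resolved.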
